A study of Mus musculus with 12 samples.

Results

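R-spondin 2 (RSPO2) given alone was compared with vehicle in MC3T3-E1 subclone 14, a clonal wild-type pre-osteoblast line derived from mouse skull bone. The arms compared hold 6 of the 12 RNA sequencing libraries of the series, taken by their treatment label: 3 of cultures given vehicle (Control) and 3 of cultures given recombinant mouse RSPO2 at 200 ng/ml. All cultures, controls included, were kept for 5 days in osteogenic medium, α-MEM with ascorbic acid phosphate and β-glycerophosphate. The other 6 libraries came from cultures given BMP2 (bone morphogenetic protein 2) at 100 ng/ml or BMP2 and RSPO2 at the same doses, and they enter the comparison through the filter on low values and the shared estimate of the spread. Each arm held 3 replicates described as biologically independent, all from a single cell line, so the spread between them is one of cultures and not of animals.

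R-spondins are secreted proteins that strengthen Wnt signals. They bind the receptors LGR4, LGR5 and LGR6 together with the membrane ubiquitin ligases ZNRF3 and RNF43, which otherwise remove Frizzled Wnt receptors from the cell surface. More Frizzled at the surface lets a given amount of Wnt ligand stabilise more β-catenin, which enters the nucleus and acts with TCF and LEF factors on target genes, several of which encode inhibitors of the same pathway. In bone, Wnt and β-catenin signalling is known to bear on the choice between osteoblast and chondrocyte fate and on bone formation.

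Expression was given as FPKM, which divides fragments by transcript length and library total, so levels of different genes can be set side by side. Tested were the 11548 genes that reached 1 FPKM in 3 or more of the 12 libraries, on the scale log2(FPKM + 1). That scale understates the change of genes at low FPKM. A gene is called here when its Benjamini-Hochberg adjusted p from limma, fitted to all 12 libraries, was under 0.05. Sequencing depth is unknown, because no counts were given. In the 6 libraries, 10920 to 11105 genes were at 1 FPKM or more, and summed FPKM ran from 361588 to 380507. Replicate 1 of both arms stood apart: the median FPKM of 27 cell cycle genes was 45.9 in Control replicate 1 and 46.2 in RSPO2 replicate 1, against 8.90 to 11.8 in the other 4 libraries. In RSPO2 replicate 3, transcripts of RNA polymerase III genes took 2.30% of the summed FPKM, against 0.303% and 0.338% in the other RSPO2 libraries and 0.295% to 0.593% in Control. The identity of the line was visible in its bone genes: the master regulator Runx2 was at 21.2 to 32.7 FPKM in the 6 libraries, Sp7 (osterix) at 61.8 to 157 and the collagen gene Col1a1 at 3935 to 6454. Because replicate 1 stood apart, replicates 2 and 3 of every arm were also fitted alone.

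RSPO2 alone called 9 of the 11548 tested genes (0.0779%), of which 7 rose (0.0606%) and 2 fell (0.0173%). The genes that rose encode a Wnt feedback inhibitor (Nkd2), a proneural transcription factor (Neurog2), an ion cotransporter and an ion channel (Slc12a7, Asic1), a protein that binds insulin-like growth factors (Igfbp2), a transcription factor (Ets2) and a gene without a symbol (MGP_C57BL6NJ_G0007334) that the deposited table lists as a lincRNA, a long non-coding RNA. The genes that fell encode a prostaglandin receptor (Ptgfr) and a secreted protein of the MIA family (Otor). Nkd2, Neurog2 and the lincRNA gene reached 1 FPKM in fewer than 3 libraries outside the RSPO2 arm, so they could be tested only because they were high there. In bulk RNA, fewer cells of a type and less RNA per cell cannot be told apart. In all 9, every RSPO2 library lay on one side of every Control library, which was the case for 1077 of all tested genes (9.33%), with RSPO2 above in 671 (5.81%) and below in 406 (3.52%).

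Nkd2 had the smallest p of all genes. Its protein binds Dishevelled and restrains Wnt signalling. It was at 1.80, 0.98 and 1.01 FPKM in Control replicates 1, 2 and 3, and at 5.92, 6.52 and 6.58 with RSPO2. The lowest RSPO2 library thus lay well above the highest Control library, and the ratio of the arm means was 5.02 (log2 difference 1.72, SE 0.17, adjusted p = 0.00894). The related Nkd1 stayed under 0.4 FPKM in all 6 libraries and was not tested.

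Slc12a7 encodes the potassium-chloride cotransporter KCC4, which moves both ions out of cells. Its FPKM was 18.4, 12.6 and 11.9 in Control and 36.4, 33.7 and 31.7 with RSPO2. The arms did not overlap, and the mean rose 2.37-fold (log2 difference 1.21, SE 0.18, adjusted p = 0.0408). Slc12a7 and Nkd2 are neighbours on chromosome 13. In the RefSeq annotation of GRCm38.p6, Slc12a7 spans chr13:73733052-73816754 on the plus strand and Nkd2 spans chr13:73818534-73847631 on the minus strand, so that their 3′ ends face each other with 1779 bases between them. The annotated genes do not overlap. Whether transcripts running past either end add to the other's FPKM was not tested.

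The promoters of 4 genes on which the result turns are shown because they include the neighbouring pair, the classical β-catenin target Axin2 and Ptgfr, the more abundant of the called genes that fell. Each window runs from 250 bases before to 50 bases after a transcript start in RefSeq GRCm38.p6, on the gene's own strand. Capitals mark CTTTG or its reverse complement CAAAG, the core of the TCF and LEF motif.

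Nkd2 (chr13:73847582-73847881, minus strand): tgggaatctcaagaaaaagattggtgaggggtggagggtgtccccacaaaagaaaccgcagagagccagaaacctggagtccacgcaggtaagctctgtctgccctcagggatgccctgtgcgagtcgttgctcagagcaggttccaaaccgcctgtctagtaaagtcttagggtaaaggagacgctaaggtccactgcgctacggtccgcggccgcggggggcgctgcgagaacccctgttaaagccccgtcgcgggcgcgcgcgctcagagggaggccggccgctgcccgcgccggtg
Slc12a7 (chr13:73763410-73763709, plus strand): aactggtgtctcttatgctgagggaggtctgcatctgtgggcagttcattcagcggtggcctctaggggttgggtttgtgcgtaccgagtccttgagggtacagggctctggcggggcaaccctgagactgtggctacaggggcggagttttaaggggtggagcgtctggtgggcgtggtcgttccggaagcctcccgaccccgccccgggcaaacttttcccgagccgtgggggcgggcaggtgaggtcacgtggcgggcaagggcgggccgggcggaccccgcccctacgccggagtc
Axin2 (chr11:108920099-108920398, plus strand): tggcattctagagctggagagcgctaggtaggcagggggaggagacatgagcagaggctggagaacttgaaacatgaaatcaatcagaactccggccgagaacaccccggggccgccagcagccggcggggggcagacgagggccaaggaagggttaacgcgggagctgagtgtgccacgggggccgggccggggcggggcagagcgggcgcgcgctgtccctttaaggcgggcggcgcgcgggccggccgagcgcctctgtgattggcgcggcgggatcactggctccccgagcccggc
Ptgfr (chr3:151837479-151837778, minus strand): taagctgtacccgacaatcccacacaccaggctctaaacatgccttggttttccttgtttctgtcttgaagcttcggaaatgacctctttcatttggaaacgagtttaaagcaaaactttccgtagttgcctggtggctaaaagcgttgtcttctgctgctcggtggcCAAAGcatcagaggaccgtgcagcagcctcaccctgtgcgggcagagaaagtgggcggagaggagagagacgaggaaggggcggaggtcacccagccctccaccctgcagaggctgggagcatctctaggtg

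Only the Ptgfr window of the 4 held the core, once, and none held the longer motifs CTTTGAA or CTTTGAT on either strand, which contain the core. A second Slc12a7 window (chr13:73763447-73763746), which overlaps the first and holds none of these motifs, is not shown. Both Slc12a7 windows lie inside the annotated span of the gene. Over 32851 RefSeq promoters of this length, 8.65% held CTTTGAA or CTTTGAT and 53.9% held CTTTG. All 8 called genes with a symbol matched the promoter table, with 10 promoters, of which 0 held a longer motif and 3 held the core (30%). Of 15 tested Wnt targets, 8 matched with 13 promoters, of which 1 held a longer motif (7.69%) and 6 held the core (46.2%). These counts describe letters within a short window and say nothing of binding elsewhere.

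The remaining called genes had the following levels. Neurog2, which drives neuronal fate in the embryo, was at 0.61, 0.09 and 0.21 FPKM in Control and 2.41, 2.83 and 4.04 with RSPO2 (log2 difference 1.65, SE 0.19, adjusted p = 0.0231). All 3 treated libraries were above all controls, yet the level stayed low beside Igfbp2 or Slc12a7. It reached 1 FPKM in the RSPO2 libraries only. Of the 10 other proneural factors listed, none reached the level needed for testing. The neuronal markers were low too except for the tubulin gene Tubb3, which mesenchymal cells also express: the 5 measured markers summed to 32.7 to 48.7 FPKM in Control and 32.7 to 36.3 with RSPO2.

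Igfbp2 was the most abundant called gene, at 64.5, 63.4 and 62.2 FPKM in Control and 119.8, 145 and 149 with RSPO2. Controls lay close together, every RSPO2 library was above them, and the mean rose 2.18-fold (log2 difference 1.1, SE 0.15, adjusted p = 0.0383). Asic1, an acid-sensing sodium channel, was at 3.84, 3.37 and 3.03 FPKM against 8.04, 9.39 and 7.24 (log2 difference 1.06, SE 0.14, adjusted p = 0.0383). Ets2, an ETS-family transcription factor, was at 8.63, 8.74 and 6.73 FPKM against 16.1, 19.1 and 14.6 (log2 difference 0.96, SE 0.14, adjusted p = 0.0383). Neither gene overlapped between arms, and the ratio of means was 2.41 for Asic1 and 2.07 for Ets2. The lincRNA gene MGP_C57BL6NJ_G0007334 was at 0.72, 1.17 and 0.56 FPKM against 3.01, 3.43 and 2.53 (log2 difference 1.14, SE 0.16, adjusted p = 0.0383).

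Ptgfr, the receptor for prostaglandin F2α, was at 20.6, 20.0 and 24.8 FPKM in Control and 7.27, 6.59 and 7.94 with RSPO2. The mean Control level was 3.00 times that with RSPO2 (log2 difference −1.46, SE 0.19, adjusted p = 0.0338), with a wide gap between the arms. Otor, known from cartilage and the inner ear, was at 1.92, 1.63 and 1.87 FPKM in Control and 0.28, 0.36 and 0.40 with RSPO2 (log2 difference −1.06, SE 0.14, adjusted p = 0.0338). Of the 10 tested genes of prostaglandin synthesis and reception, Ptgfr was the 1 called, beside 0.0779% of all tested genes. The median difference of these 10 genes was −0.01, against 0.01 over all tested genes. The enzyme gene Pla2g4a, which frees arachidonic acid, was at 9.32, 10.0 and 9.07 FPKM in Control and 7.00, 8.48 and 6.45 with RSPO2, below in each treated library but not called.

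**Figure D1:**
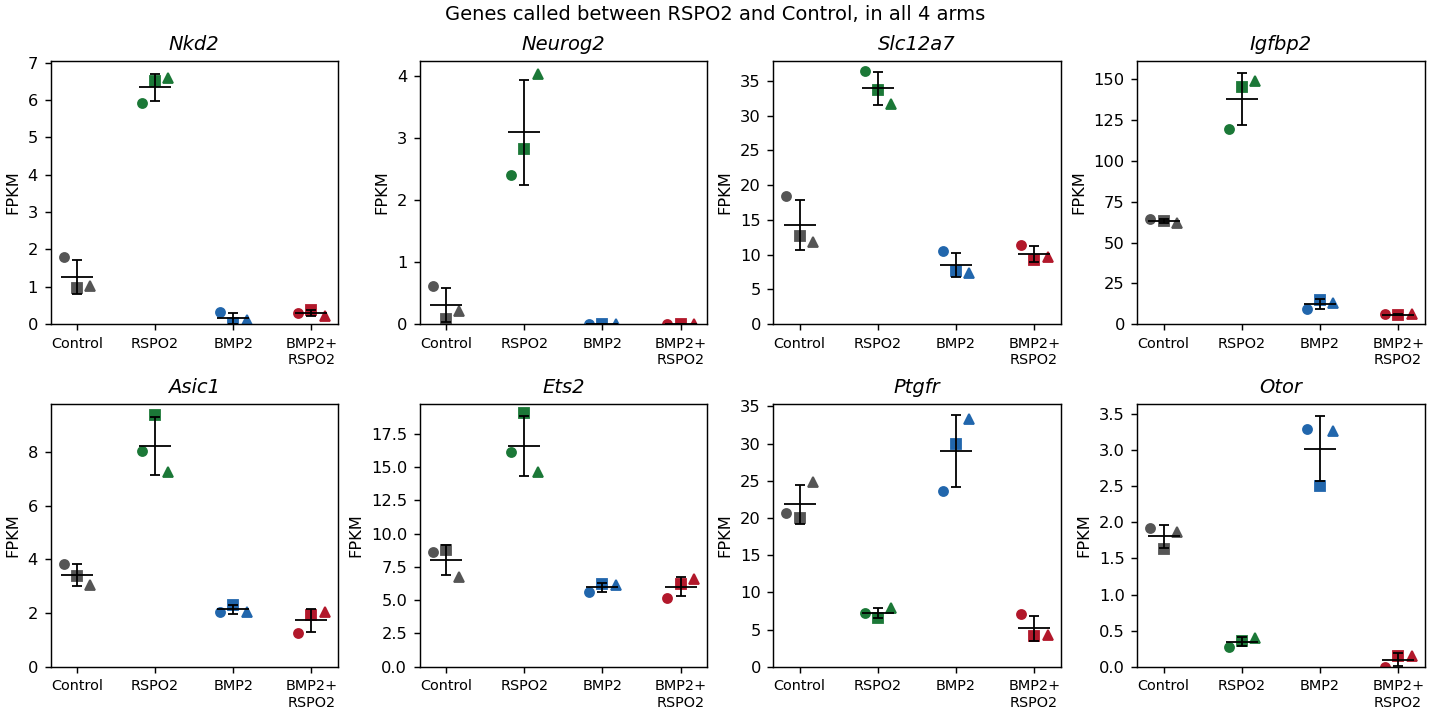
FPKM (vertical axes, linear, from 0) of the 8 called genes with a symbol in the 12 libraries. Each symbol is a library (circle, square and triangle for replicates 1, 2 and 3), horizontal lines are arm means and bars are SDs, n = 3. RSPO2 libraries lie apart from Control libraries in every panel, for example at 5.92 to 6.58 against 0.98 to 1.80 for Nkd2.

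The number of calls depended on single libraries and on the fit. Leaving out Control replicate 1, 2 or 3 gave 3, 0 or 2 calls, and leaving out RSPO2 replicate 1, 2 or 3 gave 3, 1 or 0. Leaving out BMP2 replicate 1, 2 or 3 gave 8, 4 or 1, and BMP2+RSPO2 replicate 1, 2 or 3 gave 21, 1 or 1, since these arms share the estimate of the spread. Fitted to the 6 RSPO2 and Control libraries alone, no gene was called, with 553 at an unadjusted p under 0.05, against 418 (3.62%) in the fit to 12 libraries. Among these left-out fits Nkd2 was called in 9 of 12 (highest adjusted p = 0.0907) and Neurog2 in 5 (0.144), and the other 6 in 1 to 3 (0.227 to 0.293). The sign of the difference stayed the same for all 8 in every fit and setting run.

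Same-numbered Control and RSPO2 libraries deviated together, although the labels do not say that a number marks a shared batch. The replicate number was therefore also fitted as a block. This gave 26 calls (0.225%), 18 higher (0.156%) and 8 lower (0.0693%), which hold all 9 genes above. The same block fitted to the 6 RSPO2 and Control libraries alone called 0 genes (1333 at an unadjusted p under 0.05), so each adjusted p given below with the block is that of the fit to 12 libraries. Replicates 2 and 3 alone gave 195 calls (1.69%), 126 higher (1.09%) and 69 lower (0.598%), with 8 of the 9. That fit was made after replicate 1 was seen to stand apart. It holds 2 libraries per arm and shares its spread with the BMP2 arms. Where only its adjusted p is added below for a gene not called over 3 replicates, the block did not call that gene either. Among the genes added by the block were Enpp2 (autotaxin, which makes lysophosphatidic acid), Ddah1, Tmem100, Fabp5 and Agt (angiotensinogen). They were named because the blocked fit called them, after their values were seen. Enpp2 was at 51.3, 21.7 and 18.5 FPKM in Control and 117, 94.5 and 73.9 with RSPO2, without overlap. Its differences within replicates 1, 2 and 3 were 1.18, 2.08 and 1.94. Agt was at 5.54, 12.9 and 14.0 FPKM in Control and 1.51, 3.62 and 6.56 with RSPO2. The groups overlapped there, since RSPO2 replicate 3 was above Control replicate 1, while each RSPO2 library was below the Control of its own number.

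**Figure D2:**
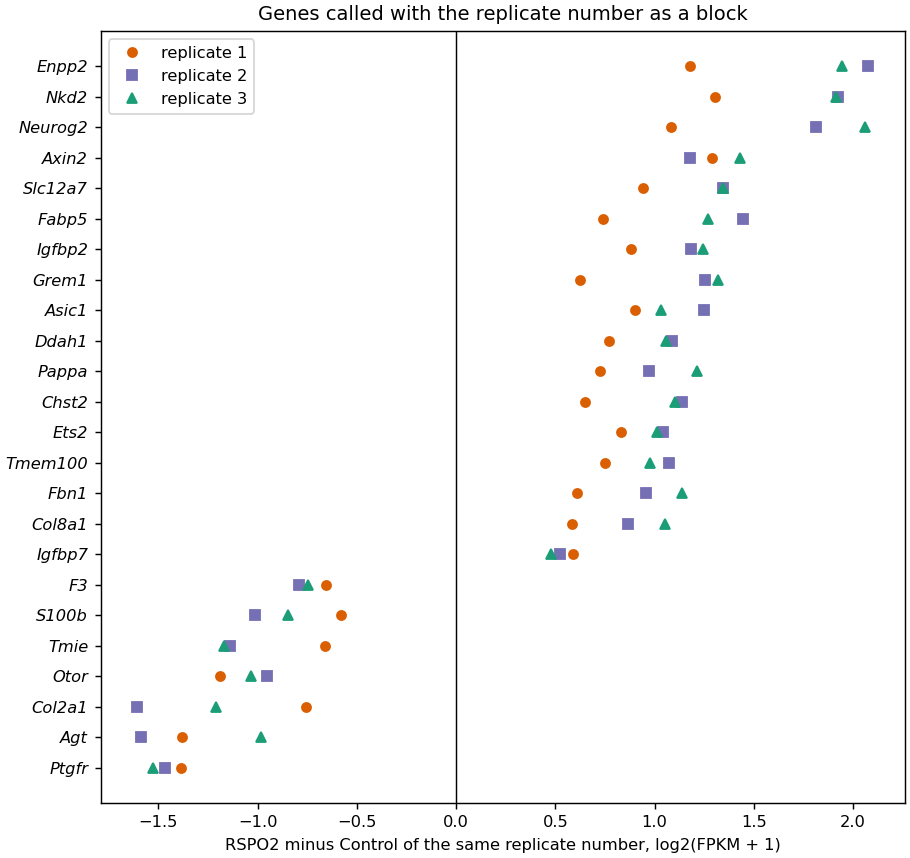
Difference in log2(FPKM + 1) between the RSPO2 and Control library of the same replicate number (horizontal axis) for the genes with a symbol that were called with the replicate number as a block. Each symbol is 1 pair; all 3 pairs of a gene lie on the same side of 0, as with Enpp2 at 1.18, 2.08 and 1.94.

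Among the R-spondins, their receptors and the ligases ZNRF3 and RNF43, 4 of 9 genes were expressed enough to test and none was called. Lgr4, the receptor present in these cells, was at 3.32, 4.24 and 4.35 FPKM in Control and 3.01, 2.33 and 2.73 with RSPO2. It was below Control in each treated library (log2 difference −0.43, SE 0.13, adjusted p = 0.670, 0.404 with the block and 0.0280 in replicates 2 and 3). Lgr5 was listed at 0 in all 12 libraries, and Lgr6 reached at most 0.01 FPKM in these 6. The ligase genes overlapped between arms: Znrf3 was at 1.63 to 2.17 FPKM in Control and 1.86 to 2.28 with RSPO2, and Rnf43 at 2.78 to 2.93 and 2.58 to 3.50. The endogenous Rspo2 transcript was at 1.71, 2.47 and 2.08 FPKM in Control and 0.80, 1.60 and 1.17 with RSPO2, below without overlap but not called. The added protein is not measured by these reads.

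Canonical Wnt targets had higher values with RSPO2 as a list. Of 15 tested members, 1 was called (Nkd2), 2 with the block (Nkd2 and Axin2) and 7 in replicates 2 and 3, none of them lower. Of all tested genes, 0.0779%, 0.225% and 1.69% were called in these fits. In 6 of the 15, all RSPO2 libraries lay above all Control libraries, in none below, beside 5.81% and 3.52% of all tested genes. Nkd2, among these 6, could be tested only because it was high in the RSPO2 arm. The median difference of the 15 was 0.45, against 0.01 over all genes, and 0.49, 0.54 and 0.49 within replicates 1, 2 and 3. It stayed between 0.28 and 0.69 in every setting run.

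Axin2, a scaffold of the complex that destroys β-catenin and a feedback target, was at 5.32, 3.72 and 3.47 FPKM in Control and 14.4, 9.70 and 11.1 with RSPO2. The ratio of means was 2.81, without overlap, at an adjusted p of 0.159 that became 0.0312 with the block. Notum, a secreted enzyme that inactivates Wnt ligands by removing their lipid, was at 8.83, 9.05 and 7.72 FPKM in Control and 17.4, 23.1 and 21.8 with RSPO2. These arms did not overlap either (log2 difference 1.18, SE 0.29, adjusted p = 0.386, 0.375 with the block and 0.00360 in replicates 2 and 3). Fgf18, a growth factor of cartilage and bone, was at 2.28, 1.11 and 1.60 FPKM against 3.89, 6.66 and 4.92. Lef1, a nuclear partner of β-catenin, was at 1.88, 1.90 and 1.78 FPKM against 3.43, 3.22 and 3.99. Tnfrsf19 (TROY), a receptor gene also known as a Wnt target, was at 103, 86.4 and 88.6 FPKM against 120.4, 135 and 125. All treated libraries exceeded all controls in each of these 3 genes, which were called in replicates 2 and 3 alone (adjusted p = 0.0185, 0.0427 and 0.0169) and not over 3 replicates.

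Apcdd1, an inhibitor at the cell surface, was at 4.22, 1.02 and 1.54 FPKM in Control and 10.0, 4.29 and 3.54 with RSPO2, higher in each pair but overlapping (adjusted p = 0.0270 in replicates 2 and 3). Wisp2, a secreted CCN-family protein gene, was likewise higher in each pair and overlapping. The 3 members with a lower fitted mean differed by at most 0.13 on the log2 scale. Ccnd1 was at 111 to 143 FPKM in Control and 108 to 134 with RSPO2, and Myc at 26.0 to 34.5 and 25.1 to 30.3. Tcf7, the most abundant TCF and LEF gene listed, was at 58.3 to 78.8 FPKM and 54.4 to 79.1. The arms overlapped in all 3. Overlap was also seen for Wif1, Twist1, Wisp1 and Enc1, with fitted differences of 0.27, 0.28, 0.08 and 0.08. The 7 members that were not tested, among them Sp5, Cdx1 and Ascl2, stayed under 0.4 FPKM.

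**Figure D3:**
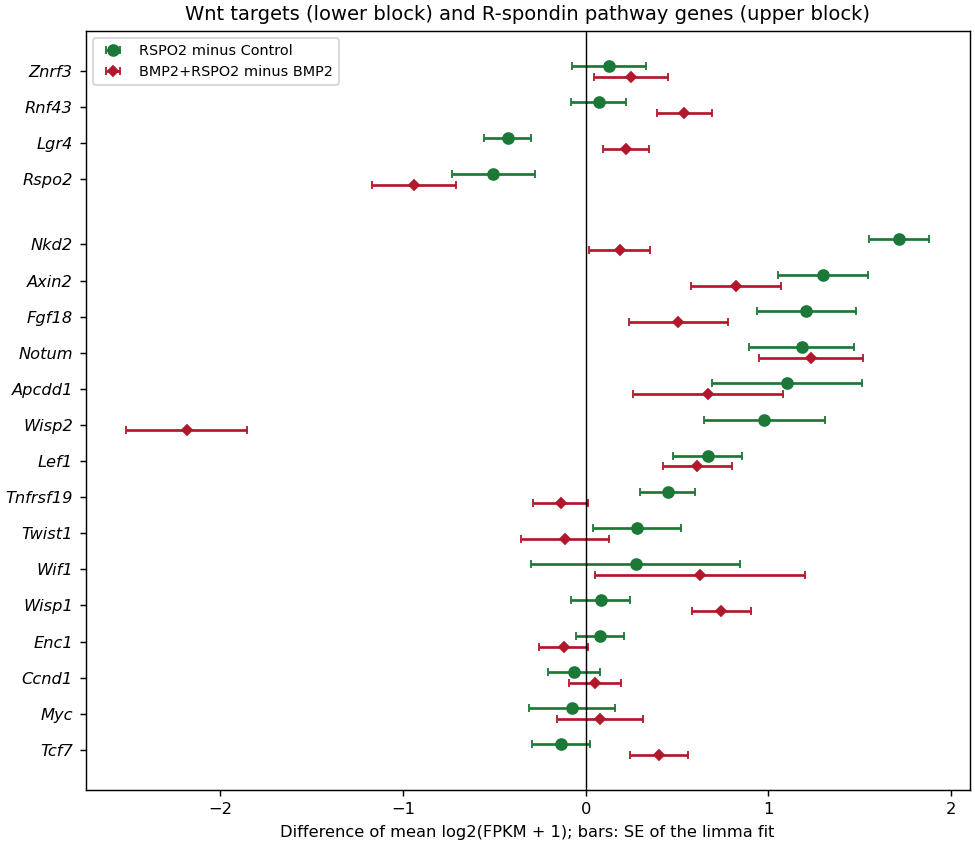
Difference of mean log2(FPKM + 1) with its SE for the tested genes of R-spondins, their receptors and ligases (upper block) and the 15 tested Wnt targets (lower block). Green circles are RSPO2 minus Control and red diamonds are BMP2+RSPO2 minus BMP2. Nkd2 stands at 1.72 without BMP2 and 0.19 with it, whereas Notum stands at 1.18 and 1.23. With BMP2, Nkd2 was at 0.03 to 0.39 FPKM, where this scale shows little change.

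Lists upstream in the pathway held no call. The median difference was −0.03 over 9 tested Wnt ligands, 0.17 over 14 Frizzled receptors and co-receptors and 0.04 over 25 core genes from the destruction complex to the TCF factors. Of the Frizzled and co-receptor genes, 6 of 14 lay above Control in every treated library and 1 below, beside 5.81% and 3.52% of all tested genes. Wnt7b, a ligand known in bone, was at 2.96, 1.77 and 2.0 FPKM in Control and 4.77, 4.95 and 5.54 with RSPO2. The ratio was 2.27 without overlap (adjusted p = 0.217, 0.191 with the block and 0.0116 in replicates 2 and 3). Wnt10b, another bone-forming ligand, had the opposite sign, at 16.3, 15.4 and 18.6 FPKM against 10.1, 9.03 and 9.47 (adjusted p = 0.670, 0.488 with the block and 0.0384 in replicates 2 and 3). Fzd1 was at 4.72, 4.85 and 4.13 FPKM against 6.75, 8.49 and 7.56, and Fzd5 at 4.60, 8.93 and 8.08 against 2.53, 4.63 and 3.66. Fzd5 overlapped through Control replicate 1, and Fzd1 did not overlap.

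Of 9 secreted Wnt antagonists 3 were tested and none was called; Dkk2 passed the filter only through its RSPO2 libraries. Sfrp2, a decoy that binds Wnt proteins, was at 66.0, 61.7 and 56.0 FPKM in Control and 86.2, 101 and 119 with RSPO2 (log2 difference 0.72, SE 0.14, adjusted p = 0.159). Dkk2, which binds the co-receptors LRP5 and LRP6, was at 0.73, 0.28 and 0.30 FPKM against 3.06, 2.24 and 1.26, and Dkk3 at 67.0 to 73.3 against 79.5 to 85.9. Each of the 3 had no overlap between arms, with RSPO2 above, beside 5.81% of all tested genes. Sfrp2 was called in replicates 2 and 3 (adjusted p = 0.0133), beside 1.69% of all tested genes, and not with the block (0.156). Sost, the gene of the osteocyte inhibitor sclerostin, was listed at 0 in all 6 libraries.

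Genes of insulin-like growth factor (IGF) signalling had the highest median of the lists with at least 5 tested members, 0.58 over 11 genes (0.30, 0.55 and 0.74 within replicates 1, 2 and 3). The list holds the called gene Igfbp2 and was chosen with earlier results of these data known, so its rank and counts are descriptions. Igfbp2 was called, Igfbp2, Igfbp7 and Pappa with the block, and 6 in replicates 2 and 3, beside 0.0779%, 0.225% and 1.69% of all tested genes. Pappa, a protease that frees IGFs from their binding proteins, was at 2.39, 1.56 and 1.58 FPKM in Control and 4.60, 4.02 and 4.99 with RSPO2 (adjusted p = 0.159, and 0.0394 with the block). Igfbp7 was at 63.2, 53.9 and 56.2 FPKM against 95.6, 78.1 and 78.6 (0.263, and 0.0434 with the block). Both were without overlap. The related protease Pappa2 was at 39.3, 49.4 and 49.8 FPKM against 23.2, 35.3 and 33.3, lower in each treated library, and was singled out after its values were seen.

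On the bone side the differences were mostly negative. Of 22 tested osteoblast genes 21 had a lower fitted mean with RSPO2, beside 5582 of all 11548, and none was called. The median difference was −0.40, 3 were called lower in replicates 2 and 3 (0.598% of all genes), and 2 lay below Control in every treated library (3.52% of all genes). Ibsp (bone sialoprotein, a matrix protein of mineralising bone) was at 457, 683 and 793 FPKM in Control and 232, 305 and 387 with RSPO2, without overlap (adjusted p = 0.407, and 0.0165 in replicates 2 and 3). Sp7, a transcription factor required for osteoblasts, was at 86.5, 129.8 and 157 FPKM against 61.8, 64.8 and 96.4, which overlapped through Control replicate 1. Dlx5, a homeobox regulator of the same lineage, was at 18.7, 27.2 and 30.5 FPKM against 11.5, 16.4 and 23.9, and overlapped too. Panx3, a channel of osteoblasts and chondrocytes that stands in no list, was at 87.8, 124 and 141 FPKM against 46.5, 54.7 and 73.3, without overlap (log2 difference −1.0, SE 0.21, adjusted p = 0.217).

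Chondrocyte genes had the lowest median, −0.45 over 9 tested members, and 3 of them lay below Control in every treated library, beside 3.52% of all genes. Sox9, the master regulator of cartilage, was at 4.68, 5.84 and 5.94 FPKM in Control and 2.85, 2.28 and 3.04 with RSPO2 (log2 difference −0.80, SE 0.18, adjusted p = 0.263, and 0.0191 in replicates 2 and 3). Its target Col2a1, the main cartilage collagen, was at 1.86, 6.40 and 4.63 FPKM against 0.69, 1.43 and 1.43 (adjusted p = 0.958, and 0.0312 with the block). Acan and Col9a1, which define mature cartilage, were listed at 0 in all 6 libraries.

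Genes that answer to BMP signalling through SMAD factors showed a median difference of −0.24 over 18, with no call. Id3, an inhibitor of basic helix-loop-helix factors, was at 35.4, 36.2 and 46.7 FPKM in Control and 22.7, 11.4 and 20.3 with RSPO2 (log2 difference −1.12, SE 0.28, adjusted p = 0.425). Atoh8 was at 2.16, 1.86 and 2.48 FPKM against 0.77, 0.33 and 0.95 (−0.93, SE 0.21, 0.272). Both were below Control in every library. The secreted BMP antagonist Grem1 (gremlin) stood opposite, at 27.5, 17.6 and 16.0 FPKM against 43.0, 43.3 and 41.6 (adjusted p = 0.249, and 0.0394 with the block). Among BMP, activin and TGF-β ligands and receptors, 6 of 19 lay above Control in every treated library and none below, beside 5.81% and 3.52% of all genes. The activin subunit gene Inhba was at 26.3, 19.9 and 21.1 FPKM against 37.6, 49.8 and 57.3, and the ligand gene Gdf6 at 5.19, 5.20 and 5.02 against 6.66, 11.3 and 10.4. Neither was called over 3 replicates (adjusted p = 0.670 and 0.644) or with the block (0.501 and 0.499). Both were called in replicates 2 and 3 (0.0157 and 0.0108).

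**Figure D4:**
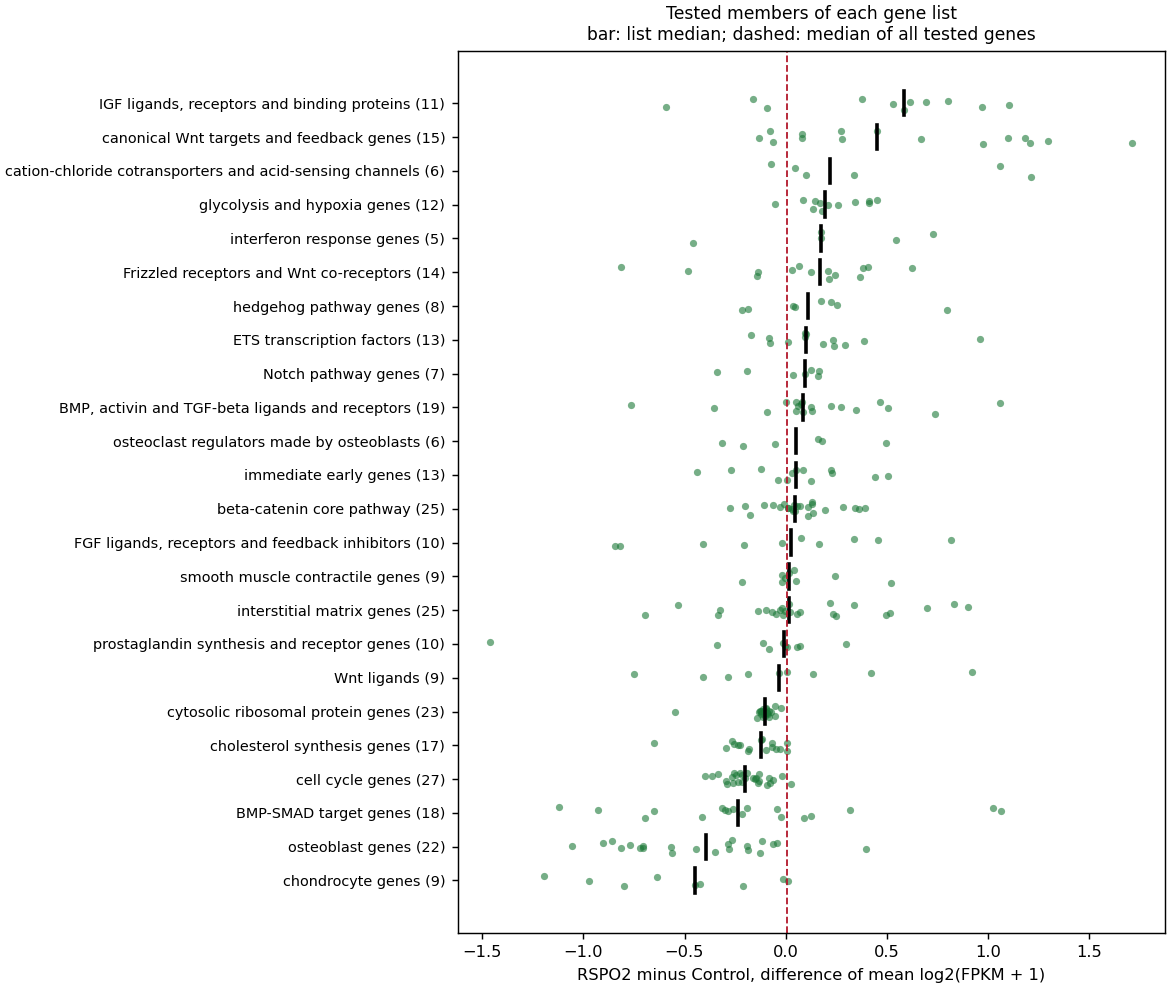
Difference of mean log2(FPKM + 1), RSPO2 minus Control (horizontal axis), for each tested member (points) of the lists with at least 5 of them, whose number stands in parentheses. Black bars are list medians, from 0.58 for IGF genes and 0.45 for Wnt targets to −0.40 for osteoblast and −0.45 for chondrocyte genes; the dashed line is the median of all tested genes, 0.01.

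Matrix genes split. Over 25 interstitial matrix genes the median was 0.02, with 6 above and 2 below Control in every treated library, beside 5.81% and 3.52% of all genes. Fbn1, whose fibrillin fibres bind TGF-β complexes, was the first gene outside the threshold, at 10.5, 9.18 and 7.66 FPKM in Control and 16.5, 18.7 and 18.1 with RSPO2 (log2 difference 0.90, SE 0.14, adjusted p = 0.0581, and 0.0468 with the block). The last gene inside it was Slc12a7. Col8a1, a short-chain collagen, was at 92.8, 64.5 and 59.4 FPKM against 139.6, 119 and 124 (adjusted p = 0.307, and 0.0312 with the block). Postn (periostin), a matrix protein of the bone surface, was lower, at 175, 181 and 183 FPKM against 133, 121 and 119 (log2 difference −0.53, SE 0.10, adjusted p = 0.169, and 0.0105 in replicates 2 and 3). All 3 were without overlap.

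Other signalling lists held single genes apart from their list. The hedgehog co-receptor gene Cdon was at 16.2, 11.8 and 11.3 FPKM in Control and 25.9, 22.5 and 21.5 with RSPO2 (adjusted p = 0.234, and 0.0120 in replicates 2 and 3), while the hedgehog target Ptch1 was at 5.72 to 6.21 and 4.44 to 5.60. Among FGF receptors, Fgfr1 was higher, at 50.1, 59.0 and 50.3 FPKM against 60.6, 79.3 and 80.9. Fgfr2 was lower, at 43.15, 37.11 and 38.97 FPKM against 35.24, 25.89 and 28.42, as was Fgfr3, at 3.58, 3.85 and 6.17 against 2.34, 1.79 and 2.10. Of the 10 tested FGF genes, 2 lay above Control in every treated library and 2 below, beside 5.81% and 3.52% of all tested genes. The AP-1 gene Fosl2 was at 15.2, 14.7 and 14.7 FPKM against 21.2, 22.3 and 21.2 (log2 difference 0.51, SE 0.12, adjusted p = 0.313). Medians of the hedgehog, FGF and Notch lists and of the immediate early genes lay between 0.03 and 0.11. The list of cation-chloride cotransporters and acid-sensing channels was drawn up around the called genes Slc12a7 and Asic1, and none of its 4 other tested members was called, such as Slc12a2 at 4.55 to 6.63 against 6.24 to 7.80 FPKM. Of 13 tested ETS factors Ets2 was called, beside 0.0779% of all tested genes, with Etv6 next at 7.41 to 8.14 against 10.1 to 10.8 FPKM. The ETS list too was chosen with earlier results of these data known.

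Further genes stood out by p alone. Among the 50 genes of smallest p, 36 were higher and 14 lower with RSPO2. The 10 uncalled genes of smallest p that were higher and without overlap include, beyond those above, Filip1l (5.68, 5.21 and 3.87 FPKM against 10.1, 13.7 and 9.91), the sulfotransferase gene Chst2 (1.70, 0.82 and 0.73 against 3.23, 3.01 and 2.72, adjusted p = 0.159, and 0.0449 with the block) and the orphan receptor gene Mrgprf (27.3, 18.9 and 17.2 against 43.5, 35.5 and 35.2). Chst2 could be tested only because it was high in the RSPO2 arm. On the lower side, the calcium-binding protein gene S100b was at 4.57, 5.84 and 5.96 FPKM against 2.73, 2.39 and 2.87 (adjusted p = 0.159, and 0.0394 with the block). Calu, whose product binds calcium in the secretory pathway, was at 327, 409 and 416 FPKM against 192, 181 and 161, a log2 difference of −1.10 (SE 0.23, adjusted p = 0.236).

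Proliferation and other cell types were examined beside these results. Cell cycle genes had a median difference of −0.20 over 27, and within replicates 1, 2 and 3 it was 0.00, −0.21 and −0.33. Of the 27, 26 were fitted lower, beside 5582 of all 11548. None was called and none was without overlap, beside 0.0779% and 9.33% of all tested genes. Endothelial markers summed to 0.16 to 0.55 FPKM in Control and 0.20 to 0.42 with RSPO2, epithelial markers to 0.49 to 0.62 and 0.29 to 0.49, and macrophage and blood markers to 1.05 to 1.47 and 1.01 to 1.29. Of the muscle genes, Tnnc2 was at 43.5, 23.1 and 26.6 FPKM against 83.1, 51.7 and 65.4 (adjusted p = 0.570), while Tnnt3 and Tnni2 stayed under 0.5 FPKM. Smooth muscle genes, which mesenchymal cells also express, had a median of 0.02 over 9. The part that the cell cycle difference has in the results above was not tested.

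The same RSPO2 dose was also given with BMP2, in libraries outside the RSPO2 and Control arms that share their fit. There 506 genes were called between BMP2+RSPO2 and BMP2 (4.38%), 74 higher (0.641%) and 432 lower (3.74%), with a median over all genes of −0.19 that became −0.02 after median-of-ratios scaling. After that scaling the calls were 148 higher and 131 lower. They numbered 1710 with the replicate block, 2512 in replicates 2 and 3, 709 without BMP2+RSPO2 replicate 1 and 60 without BMP2 replicate 3. Polymerase III transcripts took 19.1% of the summed FPKM of the first BMP2+RSPO2 library, which replicates 2 and 3 leave out. Across the 11548 genes, the log2 differences without and with BMP2 had a Pearson correlation of 0.17, given as a description. Of the 9 genes called with RSPO2 alone, 5 had the same sign with BMP2 and 2 were called in the same direction.

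Those 2 were the genes that fell. Ptgfr was at 23.7, 30.0 and 33.3 FPKM with BMP2 and 7.08, 4.08 and 4.29 with both proteins (log2 difference −2.30, SE 0.19, adjusted p = 0.000609). Otor was at 3.29, 2.50 and 3.27 FPKM with BMP2 and 0.00, 0.15 and 0.15 with both (−1.87, SE 0.14, 0.000553). S100b, Postn, Mboat1 and Vit, all lower without overlap with RSPO2 alone but not called there, fell as well with BMP2 present, by 1.60, 1.15, 0.85 and 0.86 on the log2 scale (adjusted p = 0.000683, 0.000683, 0.00353 and 0.0244). Of the other 6 genes named as next lower without BMP2, none was called with it: the log2 difference was 0.50 for Ibsp, −0.05 for Panx3, −0.09 for Cfhr2, −0.44 for Sox9, −0.57 for Atoh8 and −0.47 for Calu.

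Of the genes that rose, none with a symbol was called higher beside BMP2. Nkd2 was at 0.33, 0.03 and 0.10 FPKM with BMP2 and 0.30, 0.39 and 0.23 with both, under every Control value (log2 difference 0.19, SE 0.17, adjusted p = 0.481). Neurog2 was listed at 0 in all 6 libraries with BMP2. Igfbp2 was at 9.16, 14.7 and 13.0 FPKM with BMP2 and 5.97, 5.56 and 6.21 with both, and so fell (log2 difference −0.92, SE 0.15, adjusted p = 0.0143) where it rose without BMP2. The test of the difference between the 2 effects, the interaction, called 34 of 11548 genes (0.294%), 1 higher (0.00866%) and 33 lower (0.286%), 4 of them among these 9: Igfbp2 (−2.02, adjusted p = 0.0165), Nkd2 (−1.53, 0.0308), Asic1 (−1.27, 0.0362) and Neurog2 (−1.65, 0.0373). For Neurog2, listed at 0 with BMP2, this value is the difference without BMP2 with its sign turned and adds nothing to it. After median-of-ratios scaling these 4 were no longer called (0.0550 to 0.0747), with estimates of −1.82, −1.44, −1.11 and −1.60. For Nkd2, at 0.03 to 0.39 FPKM with BMP2, log2(FPKM + 1) shows little change. With a pseudocount of 0.1 its interaction was −1.45 (adjusted p = 0.371). Interaction calls numbered 91 with the block, 3 after the scaling, 187 without BMP2+RSPO2 replicate 1 and 0 without replicate 2 or 3 of Control or of BMP2. With the block, the interaction of Slc12a7 was called too (−0.98, adjusted p = 0.142 without the block and 0.0292 with it).

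Some list medians had another sign with BMP2. Osteoblast genes were at 0.41, IGF genes at −0.40 and secreted Wnt antagonists at −0.15, against −0.40, 0.58 and 0.72 without BMP2. Chondrocyte genes were at −0.44, against −0.45. Wnt targets with BMP2 had a median of 0.40, against −0.19 over all genes. Of the 15 tested, 2 were called higher (Notum and Wisp1) and 1 lower (Wisp2), beside 0.641% and 3.74% of all tested genes. Notum was at 7.69, 3.68 and 3.78 FPKM with BMP2 and 7.86, 15.7 and 16.1 with both, a difference close to that without BMP2 (1.23, SE 0.29, adjusted p = 0.0418; interaction 0.05, SE 0.40). Axin2 was at 3.73, 1.43 and 1.66 FPKM against 4.89, 4.37 and 4.34 (log2 difference 0.82, adjusted p = 0.0792, and 0.0155 with the block). Both were above BMP2 in every library with both proteins. So was Wisp1, at 35.6, 38.4 and 37.9 FPKM with BMP2 and 48.1, 74.5 and 69.7 with both (log2 difference 0.74, adjusted p = 0.0354). Without BMP2, Wisp1 overlapped between RSPO2 and Control (log2 difference 0.08). Wisp2 went down with BMP2 present, from 11.3, 12.4 and 11.8 FPKM to 1.37, 2.29 and 1.91 (log2 difference −2.18, adjusted p = 0.0102), whereas without BMP2 it was at 22.0, 15.0 and 7.99 FPKM in Control and 38.6, 32.2 and 18.2 with RSPO2, higher in each pair and overlapping.

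**Figure D5:**
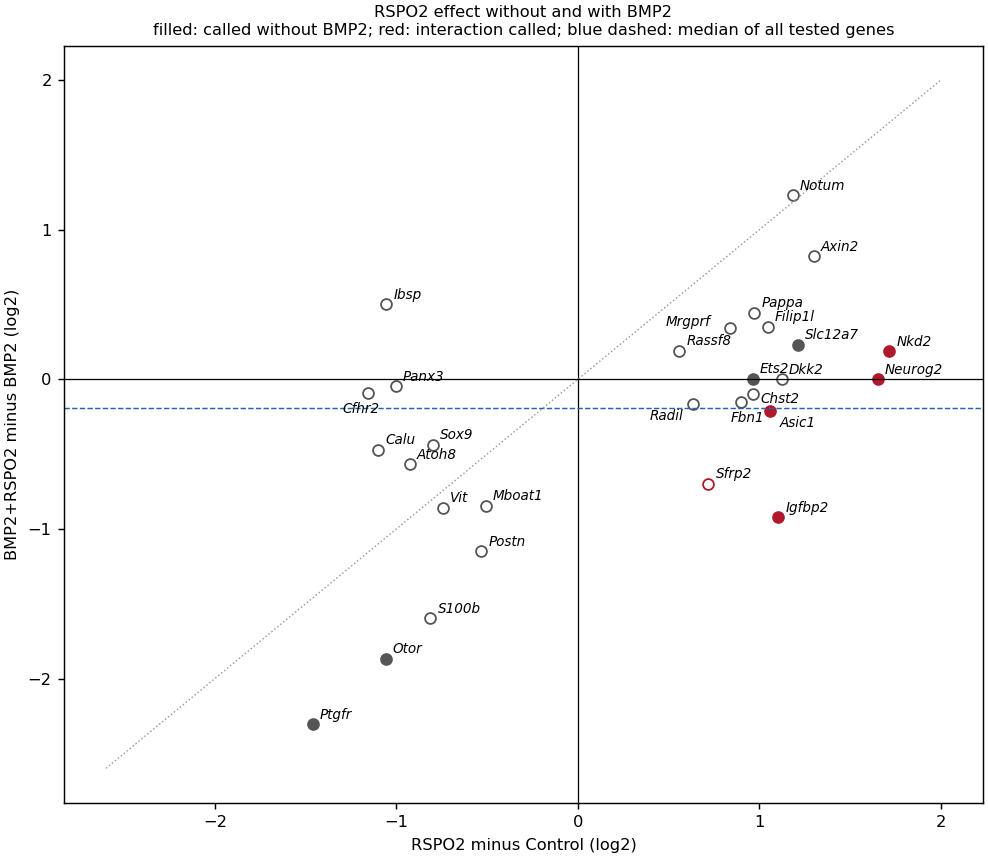
Log2 difference by RSPO2 without BMP2 (horizontal axis) and with BMP2 (vertical axis) for the called genes, the next 10 in each direction and the markers. Filled points were called without BMP2, red points had a called interaction, the dotted line marks equal differences and the blue line the median of all genes with BMP2, −0.19. Ptgfr and Otor lie low on both axes, while Nkd2 and Neurog2 lie far right and near 0 on the vertical axis. With BMP2, Nkd2 was at 0.03 to 0.39 FPKM and Neurog2 at 0.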

How the data were processed

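RNA was extracted with TRIzol, and stranded poly(A) libraries were sequenced on an Illumina NovaSeq, per the labels' protocols. Per the submitters' processing notes, cutadapt 1.10, FastQC 0.10.1, HISAT2 2.0, StringTie 1.3.4 and edgeR were used, with the builds GRCm38 and mm10. The gene identifiers are of a C57BL/6NJ annotation, so no coordinates were taken from the table. The authors deposited FPKM per gene and library and no counts, which leaves depth, and so counting error, unknown. Ratios of low FPKM between libraries gave no steps of whole reads: over 66 library pairs, the fullest bin of width 0.02 (natural log of the ratio, genes at 0.2 to 1 FPKM) held 2.08% to 4.32% of genes. At most 1.88% of values were identical in a pair. The deposited p and q values were not used, because the groups compared are not stated.

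Of 39032 genes, 17203 were at 0 in all libraries and 11548 had at least 1 FPKM in 3 of 12 libraries. log2(FPKM + 1) was fitted with limma 3.58.1 in R 4.3.3 (4 arms, trended prior, 8 residual degrees of freedom), two-sided, with Benjamini-Hochberg adjustment over all tested genes and a threshold of 0.05. The scripts were tested on simulated data. RSPO2 was compared with Control, BMP2+RSPO2 with BMP2, and these differences with each other (the interaction). Replicate numbers come from the sample titles. Deviations from the arm means correlated at 0.631, 0.408 and 0.311 for Control and RSPO2 libraries of the same number 1, 2 and 3, over 11548 genes, and these were taken as pairs. Unlike numbers correlated too, at 0.216 for Control replicate 3 with RSPO2 replicate 2 and 0.18 for Control replicate 2 with RSPO2 replicate 3. Replicate 1 of either arm correlated at −0.453 to −0.353 with replicates 2 and 3 of the other. Over all 4 arms, same-numbered libraries correlated at −0.124 (replicate 3 of RSPO2 and BMP2+RSPO2) to 0.631. Of 539 entries in 33 gene lists 347 were tested. List entries whose symbol the table does not hold were not analysed here. Named are the markers Nkd2, Axin2, Notum and Ptgfr, every called gene with a symbol, the next 10 genes each way without overlap, R-spondin and Wnt target genes, and up to 3 genes of smallest p per list. The members and lists were chosen with earlier results of these data known. Genes named outside this rule (Enpp2, Ddah1, Tmem100, Fabp5, Agt, Pappa2, Ptch1, Acan, Col9a1, Sost, Tnnt3, Tnni2) were chosen after their values were seen. Alternatives were other pseudocounts, filters, scalings, priors and sets of libraries, and the replicate block. Promoters are RefSeq GRCm38.p6.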

Additional observations from a re-analysis of the deposited data

Results flagged for a closer look

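For 7 of the 110 genes that the naming rule selects, the effect of RSPO2 differed with BMP2 present by the interaction test of limma over all 11548 genes. The difference of the effects (with BMP2 minus without, log2) was −2.02 for Igfbp2, −1.42 for Sfrp2, −1.12 for Gas1, −3.16 for Wisp2, −1.53 for Nkd2, −1.27 for Asic1 and −1.65 for Neurog2, with adjusted p of 0.0165, 0.0242, 0.0242, 0.0308, 0.0308, 0.0362 and 0.0373. Gas1, a membrane protein gene that binds hedgehog proteins, was at 14.1, 14.4 and 12.5 FPKM in Control and 15.2, 17.8 and 13.9 with RSPO2, and at 10.0, 11.3 and 10.8 with BMP2 and 4.96, 5.44 and 4.77 with both. Sfrp2 was at 23.2, 26.7 and 25.6 FPKM with BMP2 and 17.3, 14.4 and 13.8 with both. After median-of-ratios scaling, none of the 7 was called (adjusted p = 0.0550 for Igfbp2 to 0.0885 for Sfrp2), and after quantile normalization Igfbp2 and Wisp2 were. Igfbp2 was called in 14 of 20 settings, Sfrp2 and Gas1 in 11, Wisp2 in 10, Nkd2 in 6, Asic1 in 5, and Neurog2 in 6 of 19. The Neurog2 value repeats its difference without BMP2 with the sign turned, since it is listed at 0 in all 6 libraries with BMP2, and with a pseudocount of 0.1 its adjusted p was 0.240. With the same pseudocount the adjusted p of Nkd2, at 0.03 to 0.39 FPKM with BMP2, was 0.371.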

How the results depend on the processing

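The 9 calls for RSPO2 against Control became 26 with the replicate block, 195 in replicates 2 and 3, 6 without a filter, 6 after median-of-ratios scaling and 5 after quantile normalization. There were 0 calls in limma with the 6 libraries alone (553 at an unadjusted p under 0.05), with a block on those 6 (1333), at a pseudocount of 0.1 (373) and under a filter of 5 FPKM (289). A constant prior gave 8. Leaving out 1 library gave 0 to 21. The 506 calls between BMP2+RSPO2 and BMP2 became 1710 with the block, 2512 in replicates 2 and 3, 306 without a filter, 279 after median-of-ratios scaling (148 higher, 131 lower) and 261 after quantile normalization (135 and 126), and 60 to 709 without 1 library. The 34 interaction calls became 91, 1109, 3 and 12 with the block, in replicates 2 and 3, and after the same scalings, and 0 to 187 without 1 library. Except where given beside a result, the block changed no call of a gene named for RSPO2 against Control. The cause of these changes was not tested. Over 110 named genes, 2210 values kept direction and side of the threshold, 110 lost and 56 gained the call, and 20 reversed. Without 1 library, the log2 difference crossed 0 for 12 named genes: it ran from −0.0625 to 0.76 for Ptgs2, −0.00716 to 0.17 for Wisp1, −1.26 to 0.29 for Ccnb2, −0.26 to 0.70 for Wif1, −0.00262 to 0.16 for Rnf43, −1.11 to 0.31 for Cdk1, −1.25 to 0.36 for Birc5, −0.15 to 0.0262 for Ccnd1, −0.23 to 0.0523 for Tubb3, −0.16 to 0.0378 for Myc, −0.0412 to 0.16 for Cd68 and −0.23 to 0.41 for Cebpb. In replicates 2 and 3 it was 0.0101 for Tubb3. Of list medians 33 of 679 moved by more than the spread between replicates.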
